A study of Mus musculus with 23 samples.

Results

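Livers of mice given the indole alcohol 1-MIM-OH for 90 d were compared with livers of mice given it for 21 d, using 6 and 5 arrays chosen by their sample titles out of 23 arrays in all. All mice were males of the strain FVB/N-SULT1A1/2, labelled hemizygous and 5 weeks of age; whether that age refers to the start or the end of dosing, and which promoter drives the human sulfotransferase transgene, is not given in the sources used here. Treated mice had received 26 mg/kg of 1-MIM-OH by mouth 3 times a week, as 10 treatments over 21 d or 40 treatments over 90 d, and were killed 24 h after the last dose. Vehicle mice had received glyceryl trioctanoate on the same schedule (6 at 21 d and 6 at 90 d) and served here to show how livers differed between the same time points without the compound. The array of 1 further treated mouse of the 21 d group was excluded by the submitters for hybridisation artefacts and was not analysed here. Within the treated livers the number of doses, the age at death and any difference in handling between the time points cannot be told apart.

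1-MIM-OH is formed from a glucosinolate of brassica vegetables. Sulfotransferases of the SULT1A family turn it into an unstable sulfate ester that binds to DNA, and the liver, rich in these enzymes, is a main site of the adducts. Damaged DNA activates p53, a transcription factor whose targets halt the cell cycle, repair DNA or start cell death; Cdkn1a, Mdm2, Ccng1, Phlda3 and Eda2r are among them.

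Signals are log2 values of probe sets on Affymetrix Mouse Genome 430 2.0 arrays, 1 array per animal, made from whole liver RNA. In whole liver, fewer cells of a type and less RNA per cell cannot be told apart. The tissue label was checked with 20 hepatocyte markers, whose mean log2 signal lay between 14.272 and 14.438 on every array. Array medians lay between 5.53 and 5.61 and arrays of the same group correlated with r between 0.984 and 0.997. Precision is limited by the number of arrays.

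The treated arrays differed among themselves in the Gapdh and beta-actin control probe sets, which read both ends of 1 transcript, so that the 3' signal minus the 5' signal grows when RNA or labelled product is shortened. The Gapdh 3' minus 5' difference, on the log2 scale, was 1.18, 0.14, 1.02, 1.23 and 1.45 in treated 21 d replicates 1 to 5. It was 0.14, 0.63, 0.21, 0.60, 0.36 and 1.24 in treated 90 d replicates 1 to 6. Thus 4 of 5 arrays at 21 d and 1 of 6 at 90 d lay above 0.9, and the groups overlapped. The mean was 1.00 ± 0.51 (SD, n = 5) at 21 d and 0.53 ± 0.40 (SD, n = 6) at 90 d, a difference of -0.47 (2-sided exact permutation p = 0.123; the smallest p this design allows is 0.00216). In vehicle livers it was 0.33 ± 0.13 (SD, n = 6) and 0.50 ± 0.15 (SD, n = 6), a difference of 0.17 (exact permutation p = 0.0758). The beta-actin difference was 2.34 ± 0.48 (SD, n = 5) in treated 21 d livers and 1.89 ± 0.41 (SD, n = 6) in treated 90 d livers, a change of -0.45 (exact permutation p = 0.134). In vehicle livers it was 1.76 ± 0.10 (SD, n = 6) and 1.94 ± 0.16 (SD, n = 6). That change of 0.18 went the other way and had an exact permutation p of 0.039.

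**Figure D1:**
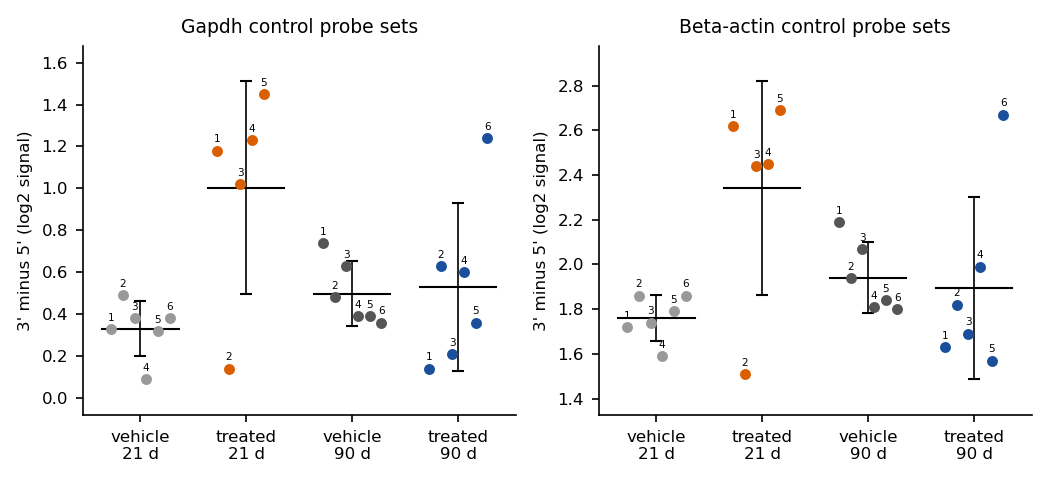
Control probe sets of Gapdh (left) and beta-actin (right), plotted as 3' minus 5' log2 signal, for each array of the 4 groups; the numbers are replicates, the bars the mean and the whiskers 1 SD. For Gapdh, 4 treated 21 d arrays (replicates 1, 3, 4 and 5) and 1 treated 90 d array (replicate 6) lie above 0.9, while treated 21 d replicate 2 has 0.14.

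Treated 21 d replicate 2 stood apart from the other 4 arrays of its group beyond the control probe sets. Its mean log2 signal over 28 Kupffer cell and macrophage markers was 10.004, against 7.8475 to 8.0668 in the other 4, and over 34 acute phase genes it was 12.65, against 10.89 to 11.144. Orm2, an acute phase plasma protein, had a log2 signal of 14.10 in this liver and 7.66 to 9.06 in the other 4. In vehicle 21 d livers the Kupffer cell mean ran from 8.0725 to 9.6321, above all of those other 4 and below replicate 2. Their acute phase mean ran from 11.034 to 12.013, overlapping the other 4 and below replicate 2. At 90 d the treated livers were mixed in the same lists: the Kupffer cell mean ran from 8.0386 to 9.3218 and the acute phase mean from 10.907 to 12.438. The naming rule chose 53 genes that did not pass with all arrays. Of them, 25 passed by limma once the liver described above, replicate 2 at 21 d, was left out. Dropping replicate 6 of the treated 90 d livers gave 21, and 18 passed in both fits. Over all 18193 genes, the first fit passed 528 as higher (2.9%) and 236 as lower (1.3%). The second passed 154 as higher and 78 as lower. Many of the 53 were chosen for a small p or a large change in the same data. Their share can therefore not be set against that of all genes. Values without either array are given below for some, not all, of the genes that passed in such a fit.

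Between 21 d and 90 d of treatment, 15 genes rose and 2 fell. The largest rises were those of Cplane1, a ciliogenesis and planar polarity effector, Eda2r, a p53 target that encodes a death receptor of the TNF receptor family, Olig1, a helix-loop-helix transcription factor, and Nat8, an acetyltransferase that completes mercapturic acids. The 2 genes that fell were Tcf24, a helix-loop-helix factor, and Cyp39a1, an oxysterol hydroxylase of bile acid synthesis. These 17 of 18193 genes (0.0934%), 15 higher (0.0824%) and 2 lower (0.011%), passed at a limma adjusted p under 0.05, each gene taken at its brightest probe set. Over all 45037 probe sets 34 passed (0.0755%), 31 higher (0.0688%) and 3 lower (0.00666%). An unadjusted p under 0.05 was found for 6044 probe sets (13.4%), with 2252 expected by chance.

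Cplane1 had log2 signals of 7.78, 7.68, 8.54, 7.95 and 7.37 in treated 21 d replicates 1 to 5. At 90 d the 6 treated livers had 10.11, 9.84, 8.61, 10.11, 10.03 and 8.63. Replicates 3 and 6 at 90 d lay far below the other 4 and just above the highest 21 d liver, so the groups did not overlap. The mean rose by 1.69 ± 0.26 on the log2 scale (SE), or 3.23-fold (limma adjusted p = 0.00539), and 6 of 7 probe sets of the gene had this sign. Their sizes were split. Probe sets with 1.99 and 1.40 passed too (limma adjusted p = 0.00273 and 0.0377), whereas those with 0.31, 0.09, 0.04 and -0.09 did not. In vehicle livers the signal ran from 6.01 to 6.57 at 21 d and from 6.08 to 6.94 at 90 d, a difference of 0.26 (limma adjusted p = 0.946).

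Olig1 had 5.80, 5.67, 5.87, 5.58 and 5.63 in the treated 21 d livers. The treated 90 d livers had 6.91, 7.41, 6.82, 7.34, 6.80 and 6.5, all above every 21 d value. The rise was 1.25 ± 0.15 (SE, limma adjusted p = 0.000334). Vehicle livers differed in the same direction, by 0.76 (limma adjusted p = 0.0753), from a median of 5.925 to one of 6.73.

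Nat8 had 9.81, 9.68, 9.78, 9.75 and 9.79 in the treated 21 d livers. At 90 d it had 11.05, 11.06, 10.34, 10.72, 11 and 10.31, again with replicates 3 and 6 lowest and with no overlap. It rose by 0.98 ± 0.13 (SE, limma adjusted p = 0.000717), and its vehicle difference was 0.68 (limma adjusted p = 0.0634). Nat8 was the only 1 of 28 male-biased liver genes to pass, and the median of that list was -0.04 against 0.02 over all genes.

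Ddah1 encodes the enzyme that degrades asymmetric dimethylarginine, an inhibitor of nitric oxide synthesis. Its log2 signal was 11.20, 11.26, 10.68, 10.75 and 11.19 at 21 d. It was 11.69, 11.82, 11.82, 11.66, 11.70 and 11.60 at 90 d, so the 90 d livers were close together and above all 21 d livers. The rise was 0.70 ± 0.11 (SE, limma adjusted p = 0.00568), with the same sign in 5 of 5 probe sets. The other probe sets ran from 0.14 (limma adjusted p = 0.707) to 0.71 (adjusted p = 0.017). The treated 90 d values overlapped those of vehicle livers at 21 d, which ran from 11.68 to 12.24, and lay below all vehicle livers at 90 d, which ran from 11.89 to 12.24.

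Cyp39a1, on the list of female-biased liver genes, had 7.78, 7.08, 8.05, 7.51 and 7.71 in treated 21 d livers. It had 5.97, 5.58, 5.45, 6.53, 6.13 and 5.44 at 90 d, with no overlap, and the log2 difference was -1.78 ± 0.19 (SE, limma adjusted p = 0.00013). It also fell in vehicle livers, by 1.14 (limma adjusted p = 0.0327), from a median of 8.185 to one of 6.895. The vehicle call ended in 11 of 23 fits that left out 1 array, namely treated 21 d replicate 5, any of vehicle 21 d replicates 1 to 6 or vehicle 90 d replicates 1, 2, 4 and 5 (highest adjusted p 0.161). It was the only 1 of 32 female-biased genes to pass.

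Tcf24 had 8.71, 8.05, 9.01, 8.85 and 8.91 in treated 21 d livers. At 90 d it had 6.31, 5.74, 8.18, 6.58, 6.98 and 7.04, and replicate 3, at 8.18, overlapped the lowest 21 d liver. The difference of -1.90 ± 0.26 (SE) was the largest of the 17 in size (limma adjusted p = 0.00191). Vehicle livers differed by -0.72 (limma adjusted p = 0.763).

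**Figure D2:**
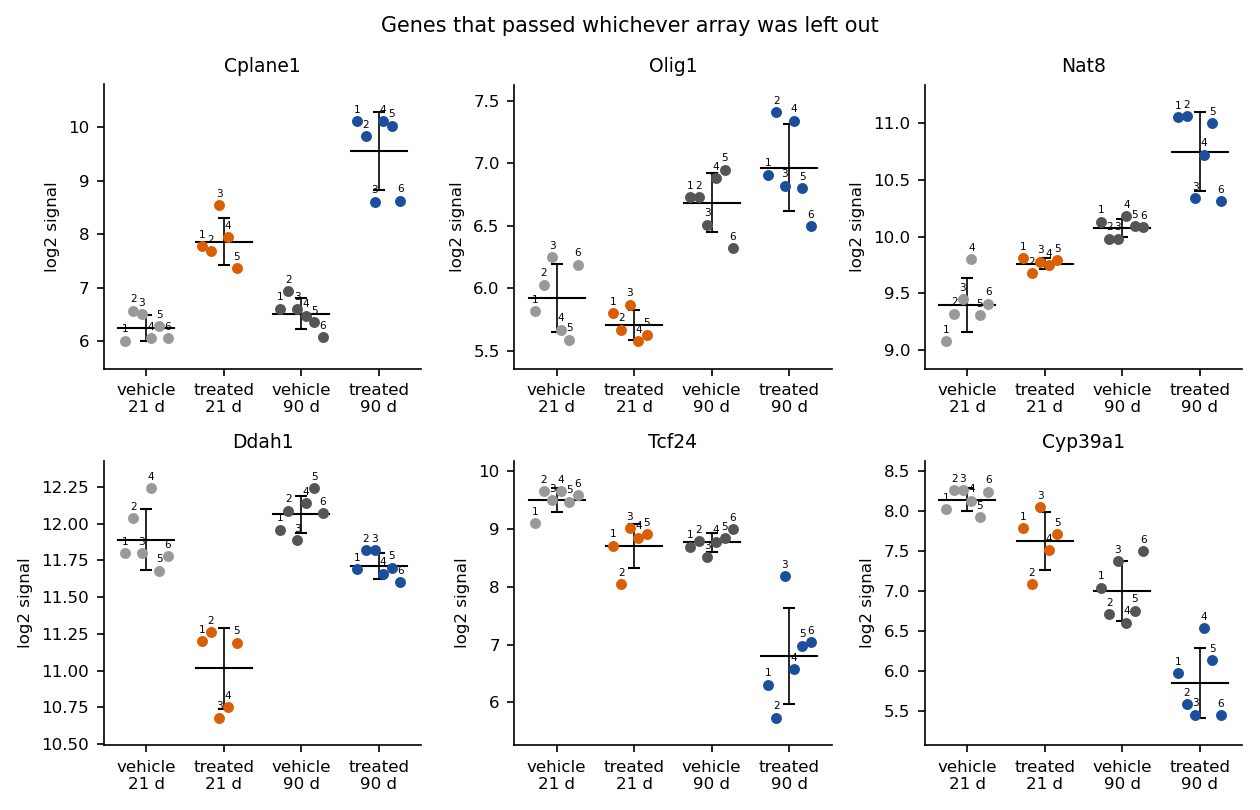
Log2 signal of 6 genes in each array of the 4 groups, with replicate numbers, the mean as a bar and 1 SD as whiskers. Treated 90 d livers lie apart from treated 21 d livers for Cplane1, Olig1, Nat8, Ddah1 and Cyp39a1, and overlap them at replicate 3 for Tcf24; Cyp39a1 fell in vehicle livers too.

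Those 6 genes passed in each of the 23 fits that left out 1 array, whereas the calls of the other 11 ended in some of them. Of the 17 genes, 7, 6, 7 and 7 still passed without treated 21 d replicates 1, 3, 4 and 5. Without treated 90 d replicates 1, 2, 4 and 5, 7, 6, 8 and 7 passed, and 12 passed without replicate 3. All 17 passed when either replicate 2 of the 21 d group or replicate 6 of the 90 d group was left out, and 8 to 16 without any 1 vehicle array. The sign of all 17 held in every setting tried.

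When only the 11 treated arrays were fitted, with the spread taken from them alone, 2 of the 17 genes passed, Olig1 and Cyp39a1 (limma adjusted p = 0.0254 for both), and 15 did not. Nat8 then had an adjusted p of 0.0922, Ddah1 of 0.147, Tcf24 of 0.207 and Cplane1 of 0.23, and the highest of the 15 was 0.463. The log2 differences themselves are those of the fit on all arrays.

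The other rises were smaller. Slc43a3, a membrane transporter, had 8.19, 8.68, 7.96, 8.25 and 8.43 at 21 d and 8.85 to 9.14 at 90 d, and rose by 0.69 ± 0.11 (SE, limma adjusted p = 0.0149); the call ended when replicate 1, 3 or 4 at 21 d or replicate 2 of the treated 90 d livers was left out (highest adjusted p 0.064). Anxa13, an annexin of epithelia, rose by 0.90 ± 0.17 (SE) from values of 4.47 to 4.74, under the array medians, to values of 4.86 to 6.04 (limma adjusted p = 0.0465). Hnmt, which inactivates histamine, rose by 0.55 ± 0.11, and Adssl1, an adenylosuccinate synthase, by 0.53 ± 0.10 (SE, limma adjusted p = 0.0497 and 0.0498). In both genes the highest 21 d value belonged to replicate 2 (9.95 and 9.17) and lay within the 90 d range.

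Smaller rises, between 0.35 and 0.50 on the log2 scale, were those of the calmodulin-dependent phosphodiesterase Pde1a, the endoplasmic reticulum prolyl isomerase Fkbp7, the kinase Lrrk2, the tight junction protein Cldn8, the secreted protein Scrg1 and the cell polarity protein Llgl1. Cldn8 was dim, with 3.67 to 4.06 at 21 d and 4.11 to 4.34 at 90 d, under the array medians on every treated array. In these 6 genes the treated groups did not overlap, and their limma adjusted p-values lay between 0.0313 and 0.0497. Only Cplane1, Ddah1, Pde1a and Fkbp7 of the 17 have more than 1 probe set. When the probe sets of each gene were averaged, Cplane1 and Ddah1 still passed by limma. Pde1a (limma adjusted p = 0.162) and Fkbp7 (adjusted p = 0.102) did not. Averaging leaves the values of the other genes as they were, so it is no check of them.

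Of the 17 genes, 13 had treated groups that did not overlap, 12 of them higher at 90 d. Over all genes, 87 were higher without overlap (0.478%) and 25 lower (0.137%). The 17 were called on these same arrays, so their lack of overlap is no separate evidence. The vehicle difference had the same sign as the treated one in 14 of the 17. Among the 15 that rose, the treated 21 d mean lay below the vehicle 21 d mean in 10, and the treated 90 d mean lay above the vehicle 90 d mean in 14.

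A further 12 passing probe sets belonged to 11 genes whose brightest probe set did not pass. They included Mme, the membrane peptidase neprilysin (0.88 ± 0.11 SE, limma adjusted p = 0.000717, against 0.84 and an adjusted p of 0.128 at the brightest), and Ccnd2, a cyclin (0.56 ± 0.11 SE, adjusted p = 0.0413, against 0.17). Both were chosen after their values were seen. The sign was that of the brightest probe set in 10 of the 12 and was opposite for both probe sets of Zap70.

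The p53 targets were described next, since they are the genes known to respond to DNA damage. Of 40 measured members 1 rose, Eda2r, 0 fell and 39 did not pass, and the log2 differences ran from -0.33 to 1.42. The sign was positive in 30 of 40 members (75.0%), against 57.8% of all genes, and the median was 0.16, against 0.02 over all genes and -0.01 for the list in vehicle livers. Eda2r had 5.33, 7.01, 5.82, 5.36 and 5.72 in treated 21 d livers and 7.98, 7.47, 6.75, 7.97, 7.07 and 6.37 in treated 90 d livers. Replicate 2 at 21 d was far above its group and overlapped the 90 d livers.

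Eda2r rose by 1.42 ± 0.28 (SE), or 2.68-fold (limma adjusted p = 0.0497), with a vehicle difference of -0.17. Its call ended in 19 of the 23 fits that left out 1 array, with adjusted p up to 0.169, and held in 4: without treated 21 d replicate 2 it had an adjusted p of 0.00115 and without treated 90 d replicate 6 one of 0.00548, and it also passed without replicate 3 of that group or vehicle 21 d replicate 4.

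Cdkn1a, which encodes the cell cycle inhibitor p21, did not pass. It had 8.98, 10.26, 9.59, 9.35 and 8.95 at 21 d and 10.89, 10.69, 9.01, 11.79, 10.67 and 9.15 at 90 d, a difference of 0.94 ± 0.36 (SE, limma adjusted p = 0.264). Replicates 3 and 6 at 90 d lay inside the 21 d range, and the other 4 lay above it. The same 2 livers were the lowest of the 90 d group for Phlda3, an inhibitor of Akt (7.72 and 7.69, against 8.59 to 9.20), Ccng1, cyclin G1 (10.55 and 10.46, against 10.93 to 11.38), and Mdm2, the ubiquitin ligase that limits p53 (8.85 and 8.23, against 9.24 to 9.88).

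Phlda3 had a difference of 0.67 ± 0.20 (SE, limma adjusted p = 0.175), Ccng1 of 0.48 ± 0.12 (adjusted p = 0.134) and Mdm2 of 0.34 ± 0.20 (adjusted p = 0.471), and none passed with all arrays. Leaving out treated 90 d replicate 6 gave 0.83 for Phlda3 (adjusted p = 0.0304) and 0.57 for Ccng1 (adjusted p = 0.0189), and both also passed without treated 21 d replicate 2. Fhit, a hydrolase gene that spans a common fragile site, had 7.02, 6.05, 6.02, 6.14 and 7.10 at 21 d and 5.70, 6.70, 7.58, 5.79, 6.26 and 8.35 at 90 d, with replicates 3 and 6 highest. The difference was 0.26 ± 0.34 (SE, limma adjusted p = 0.775). Sult1a1, the mouse sulfotransferase, differed by 0.22 ± 0.12 (SE, limma adjusted p = 0.438); whether transgene transcripts bind to its probe set was not tested.

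**Figure D3:**
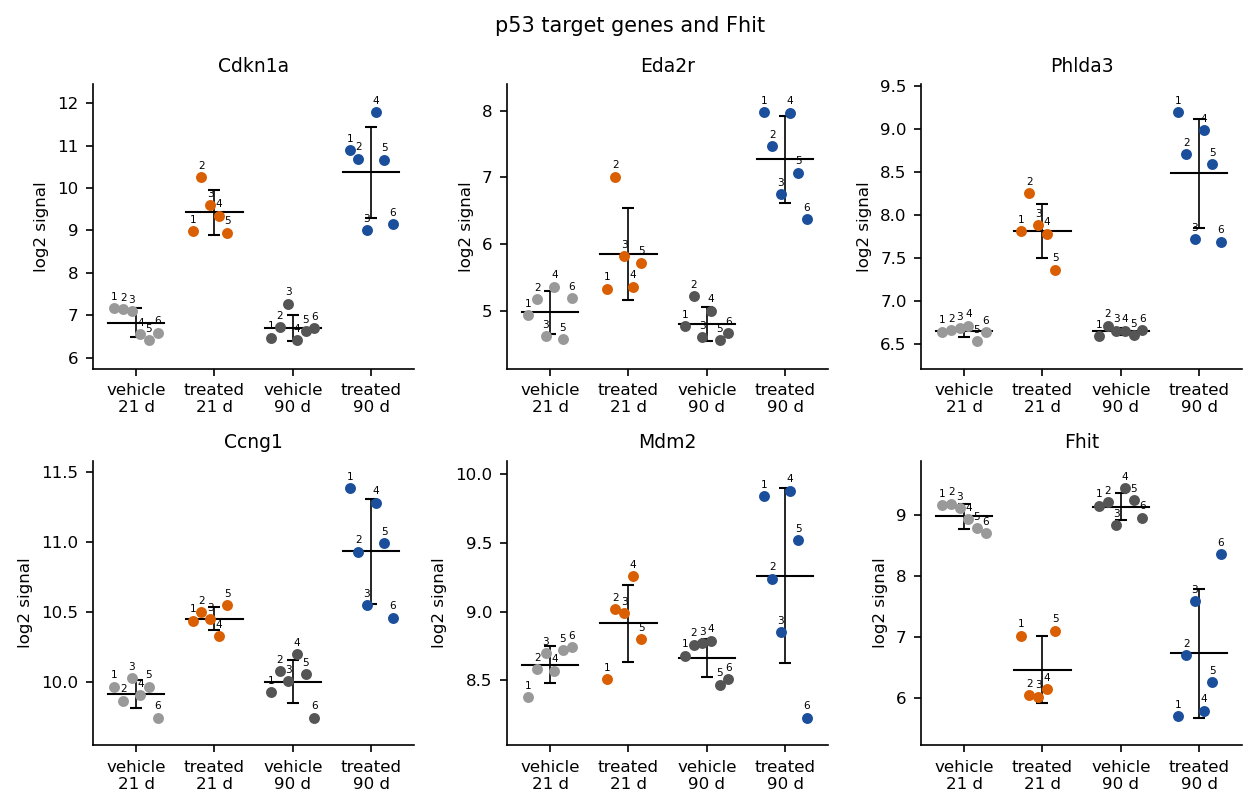
Log2 signal of 5 p53 targets and of Fhit in each array of the 4 groups, with replicate numbers, mean and 1 SD. Among treated 90 d livers, replicates 3 and 6 are lowest for Cdkn1a, Eda2r, Phlda3, Ccng1 and Mdm2 and highest for Fhit.

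The count of 34 probe sets depended on single arrays. Without treated 21 d replicate 2 it was 1644, 959 higher and 685 lower, and all 34 were among them; the Gapdh difference between the remaining treated groups was then -0.69 (exact permutation p = 0.0286), since 4 arrays above 0.9 were left at 21 d. Without treated 90 d replicate 6 it was 488, and the Gapdh difference was -0.62 (exact permutation p = 0.0556). Leaving out replicate 1, 3, 4 or 5 of the treated 21 d livers gave 12, 12, 12 and 20, and it was 17, 10, 13 and 11 when replicate 1, 2, 4 or 5 of the treated 90 d livers was left out. Among vehicle arrays, leaving out replicate 2, 5 or 6 at 21 d gave 19, 22 and 22, and replicate 1 at 90 d gave 17. The part of the control difference in these counts was not tested.

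Without treated 21 d replicate 2, 528 genes were higher (2.9%) and 236 lower (1.3%). Of 40 p53 targets, 7 rose: Eda2r (1.71 ± 0.25 SE), Ddit4l, an inhibitor of mTOR signalling (0.81), Btg2, an antiproliferative gene (0.78), Phlda3 (0.78), Ckap2 (0.67), the apoptosome subunit Apaf1 (0.49) and Ccng1 (0.49), with limma adjusted p-values between 0.00115 and 0.0441. The median of the p53 target genes was then 0.21, and it was 0.10 with the Gapdh difference as a covariate. Without the 5 arrays above 0.9 it was 0.07, with treated 21 d replicate 2 as the only array left in its group. Of 51 cell cycle and proliferation genes, 11 rose and 0 fell, among them the replicative helicase subunits Mcm6 (1.31, adjusted p = 0.00697) and Mcm5 (0.96), the mitotic kinase Cdk1 (0.53, adjusted p = 0.012) and the replication clamp Pcna (0.43).

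With all 23 arrays, 0 of the 51 cell cycle genes passed by limma, 19 were higher and 4 lower at an unadjusted p under 0.05 (8.37% and 4.93% of all genes), and the median was 0.17. That median was -0.02 without the 5 arrays above 0.9, where treated 21 d replicate 2 is the only array left in its group. Mcm6 had 5.22, 7.50, 5.25, 5.98 and 6.09 in treated 21 d livers and 6.20 to 7.31 at 90 d. Replicate 2 at 21 d was above all 90 d livers, and the other 4 were below all of them.

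**Figure D4:**
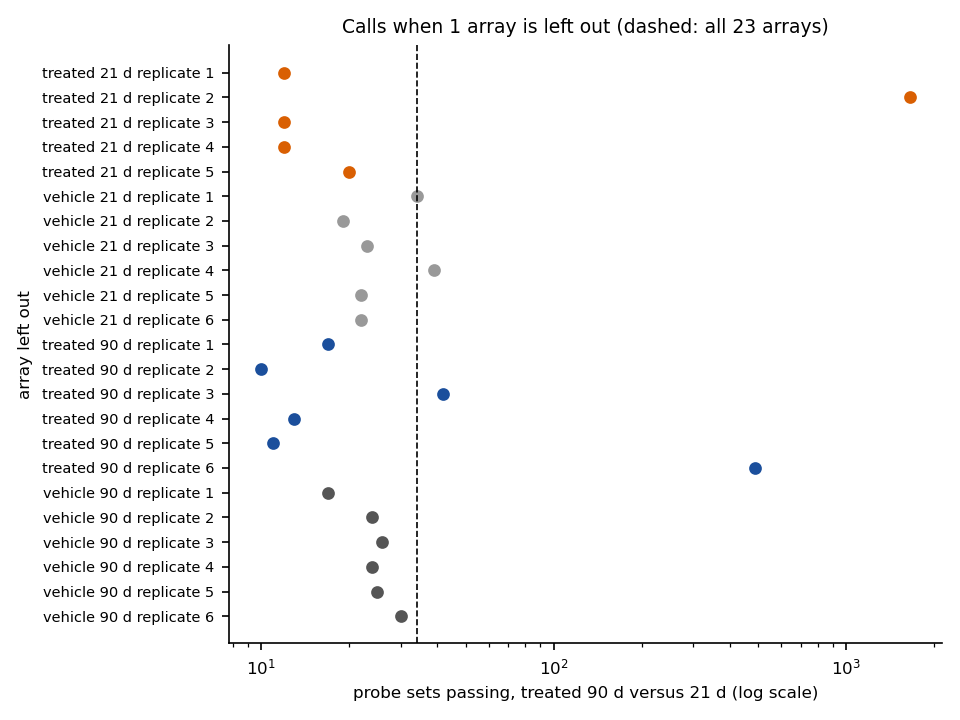
Number of probe sets passing in treated 90 d against treated 21 d livers when each of the 23 arrays is left out, on a log scale, with the dashed line at the 34 found with all arrays. Leaving out treated 21 d replicate 2 gives 1644 and treated 90 d replicate 6 gives 488, and the others give 10 to 42.

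Taking the control probe sets into account left fewer of the 17 calls. A fit with each array's Gapdh difference as covariate passed 12 probe sets, of which 7 were among the 34, and it passed 4 of the 17 genes: Olig1 (adjusted p = 0.00629), Nat8 (0.0173), Tcf24 (0.0276) and Cyp39a1 (0.00422) by limma. Cplane1 then had 1.59 ± 0.30 (SE, adjusted p = 0.0631) and Eda2r 0.96 ± 0.25 (SE, adjusted p = 0.421). Without the 5 arrays above 0.9, 77 probe sets passed, 4 of them among the 34. That fit leaves treated 21 d replicate 2 as the only array of its group, assumed to vary like the others. Of the 17 genes, Cplane1 (2.06, limma adjusted p = 0.0405), Olig1 (1.39, adjusted p = 0.039) and Nat8 (adjusted p = 0.0417) passed in it.

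Across 41 gene lists, members passed in 3, the p53 targets and the male-biased and female-biased liver genes, and in 38 lists no member did. The median log2 difference was 0.15 or more in 8 lists and lay between -0.11 and 0.14 in the other 33. The highest was that of the Kupffer cell and macrophage markers, 0.38, with 25 of 28 members above 0 and a vehicle median of -0.29. Ctss, cathepsin S of macrophages, had 9.68, 12.21, 9.72, 10.01 and 9.66 at 21 d and 9.96 to 11.98 at 90 d, with replicate 2 at 21 d above all others (0.71 ± 0.46 SE, limma adjusted p = 0.522).

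The median of the Kupffer cell and macrophage markers was 0.84 without treated 21 d replicate 2, where 3 of 28 rose, beside 2.9% of all genes. It was -0.14 with the Gapdh covariate, a fit that keeps all arrays, and -1.48 without the 5 arrays above 0.9. Its direction thus turned in both fits, but they are not separate checks. Treated 21 d replicate 2 had the highest Kupffer cell mean of its group (10.004) and its only low Gapdh difference (0.14). It is also the only treated 21 d array left without the arrays above 0.9. Interferon response genes had a median of 0.23 and 0 of 41 passed. Cholangiocyte and progenitor markers had 0.21, rodent hepatocarcinogen markers 0.21, liver tumour markers 0.18 and T, NK and B cell markers 0.16, and no member passed. Cd24a, a surface protein of biliary and progenitor cells, had 5.51 to 7.24 at 21 d and 6.56 to 7.68 at 90 d (0.94 ± 0.27 SE, limma adjusted p = 0.158). It rose by 1.20 when treated 21 d replicate 2 was left out (adjusted p = 0.0123).

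**Figure D5:**
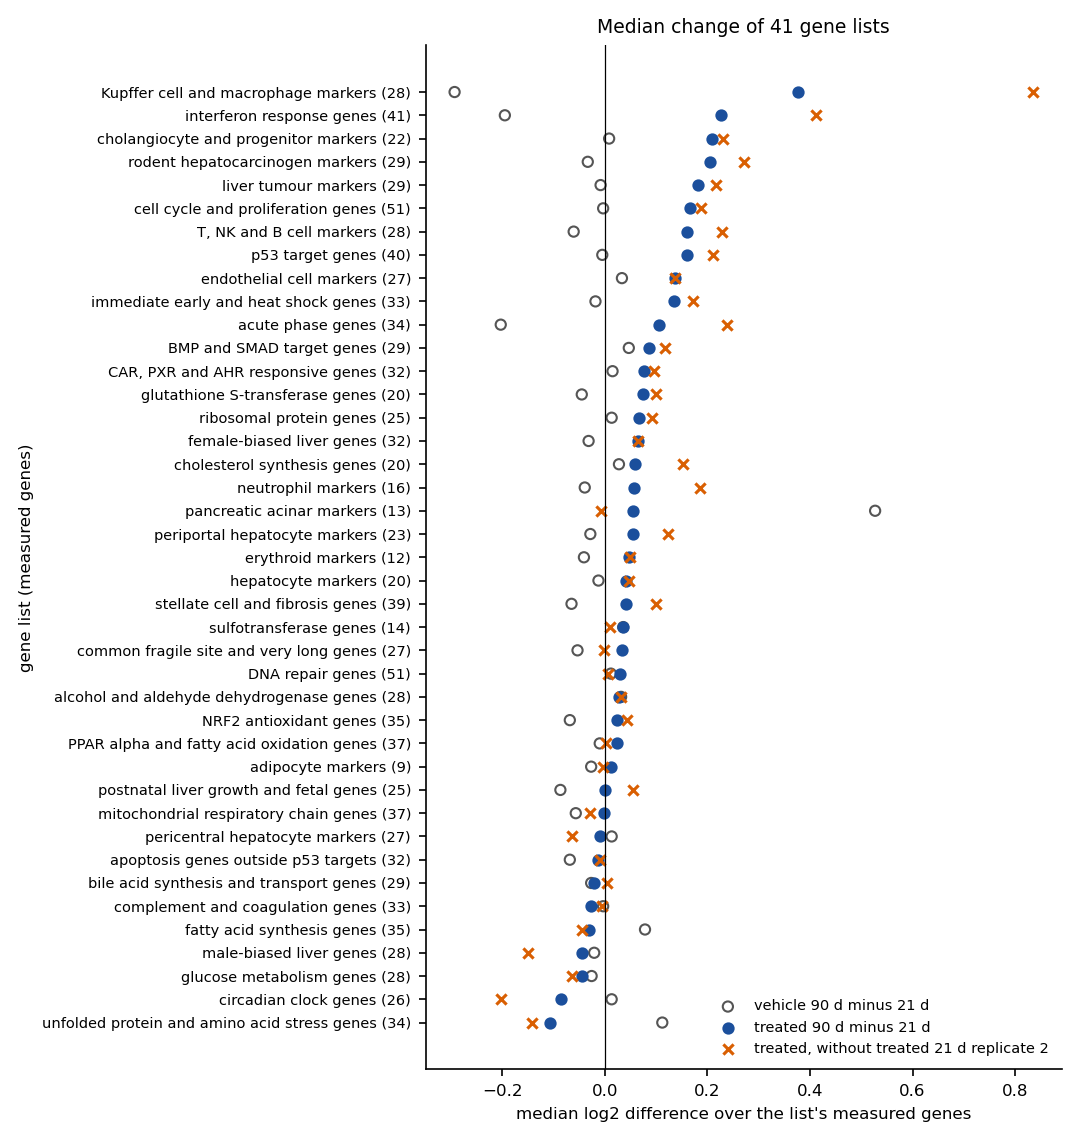
Median log2 difference between 90 d and 21 d over the measured genes of 41 lists, in treated livers (filled), in vehicle livers (open) and in treated livers without treated 21 d replicate 2 (crosses). The Kupffer cell markers lie at 0.38, -0.29 and 0.84.

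No further gene passed as lower with all arrays. The genes of smallest p in that direction were Cdh1, the epithelial cadherin (-0.54 ± 0.11 SE, limma adjusted p = 0.0595), Ppp1r42, Ttc41, Fkbp5, a co-chaperone of the glucocorticoid receptor (-0.90 ± 0.19 SE, adjusted p = 0.0645), Dio1, an iodothyronine deiodinase (-1.68 ± 0.35 SE, adjusted p = 0.0661), and Zfp839. Dio1 had 11.72, 10.87, 12.01, 11.27 and 11.28 at 21 d and 8.44, 9.25, 10.71, 8.89, 9.85 and 11.39 at 90 d. Replicates 3 and 6 at 90 d were again the ones nearest the 21 d livers, and replicate 6 overlapped them. Cdh1 did not overlap between the treated groups, and its vehicle difference was -0.61 (limma adjusted p = 0.0533). All 6 genes passed when treated 21 d replicate 2 was left out (limma adjusted p between 0.00461 and 0.0212) and when treated 90 d replicate 6 was (between 0.00241 and 0.0307). Dio1 then had -1.82 and -2.00, and Cdh1 -0.52 and -0.55.

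The last comparison asked whether treated livers changed between the time points by another amount than vehicle livers. In vehicle livers 3 of 45037 probe sets passed (0.00666%), those of 2 genes among them, Cyp39a1 and Tceal8, both lower. For the treated change minus the vehicle change, 0 probe sets passed by limma, with a smallest adjusted p of 0.492 and 4320 (9.59%) at an unadjusted p under 0.05. With all arrays no gene named here is therefore shown to change by another amount in treated than in vehicle livers. For Eda2r this difference was 1.59 and for Cplane1 1.43, both with an adjusted p of 0.492. The genes of smallest p were Dyrk3, Cldn8, Nme7 and Tesk2 above 0 and Ttc41, Srsf1, Nmrk1 and Mal2 below 0. Without treated 21 d replicate 2, 53 probe sets passed, of 27 genes (0.148%), 20 above and 7 below 0. Eda2r was among them (1.88, limma adjusted p = 0.0333), as were Cldn8, Nme7, Ttc41, Nmrk1 and Mal2 (adjusted p between 0.0333 and 0.0459). Replicate 2 had the highest treated 21 d signal of Eda2r (7.01), so leaving it out was bound to raise the Eda2r value. The 4 arrays left at 21 d all had a Gapdh difference above 0.9. With the Gapdh covariate and all arrays, 0 probe sets passed for this comparison.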

How the data were processed

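Total RNA of 23 livers was hybridised to Affymetrix arrays by the authors. The deposited values are log2 signals made with Partek and RMA (robust multi-array average), per the submitters' processing notes; no version or setting is stated there, and the base of the logarithm was inferred from values between 2.23 and 15.41. RMA gives arrays a common distribution, which hides any shift shared by all genes. No raw scans were used here.

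Of 45101 probe sets, 64 controls were left out of the tests. The platform annotation paired 34945 of the remaining 45037 with 1 gene, 932 with several and 9160 with none, and 34741 matched RefSeq genes (GRCm38.p6). Each of 18193 genes was represented by its brightest probe set. The means of the 4 groups were fitted with limma 3.58.1 in R 4.3.3 on all 23 arrays (19 residual degrees of freedom). Benjamini-Hochberg adjustment ran over the 45037 probe sets, with a threshold of 0.05. Each array is another animal, and p-values reflect the variation among animals pooled over all 4 groups, vehicle livers included. The groups differed in spread. For Cplane1 the SD at 21 d and 90 d was 0.43 and 0.73 in treated and 0.25 and 0.29 in vehicle livers. Not every gene had this order, as Ddah1 at 90 d had 0.09 in treated and 0.13 in vehicle livers. The calls on all arrays thus rest in part on the vehicle spread.

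The rule named passing genes (up to 15 each way), the genes of smallest p where fewer passed, the members of largest change of each of 41 lists, and 8 genes whatever their result. The members, lists and tests were chosen with earlier results of these data known. On simulated data limma recovered 79.1% of changes of 1.5-fold, 97% at 2-fold and 100% at 3-fold for treated 90 d against 21 d livers (45037 probe sets). A further 13 unchanged probe sets passed. The simulated noise was independent between probe sets, with the same spread in all groups and no array that stood apart. These shares therefore do not give the recovery in the real arrays. Alternatives were other samples, covariates, filters, normalizations, weights, thresholds and a replicate block.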

Additional observations from a re-analysis of the deposited data

Results flagged for a closer look

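Dixon's test was run on the 70 named genes and the Gapdh and beta-actin differences, each in treated 21 d and treated 90 d livers. Of these 144 sets of values, 17 (11.8%) held 1 liver far from the others. The sets share the same livers, and many genes were chosen for their change. The share can therefore not be set against the 1 in 20 of independent sets. Of the 17, 8 were treated 21 d replicate 2 and 3 were treated 90 d replicate 6. At 21 d, replicate 2 stood above its group for Adssl1 (9.17), the fibrinogen chain gene Fgb (14.86), Orm2 (14.10), the interferon-induced sensor Zbp1 (8.17), Ctss (12.21), the neutrophil protease Prtn3 (10.03) and the cytochrome c oxidase subunit gene Cox6b2 (6.37), and below it for the beta-actin 3' minus 5' difference (1.51). Also at 21 d, replicate 1 was high for Fkbp7 (6.68), and replicate 4 for Llgl1 (8) and Tesk2 (8.60). At 90 d, replicate 6 was low for Llgl1 (8.08), for the alcohol dehydrogenase Adh4 (12.46) and for the transferrin receptor Tfrc (8). Replicate 4 at 90 d was high for Cldn8 (4.34). Replicate 3 at 90 d was low for the apolipoprotein Apoa4 (11.95) and high for Zbp1 (9.28).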

How the results depend on the processing

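The number of passing probe sets in treated livers, 34 with all arrays, was 2 with the 11 treated arrays alone, 12 with the Gapdh covariate, 77 without the 5 arrays above 0.9 and 9 at an adjusted p under 0.01. Leaving out 1 array gave 10 to 1644. In vehicle livers, 3 with all arrays, it was 18 without the arrays above 0.9, 6 on probe sets with a mean of at least 6, 6 after quantile normalization again, 8 with array medians made equal, 32 with array weights, 7 with a trended and robust prior and 0 at an adjusted p under 0.01; leaving out 1 array gave 0 to 16. For the difference of the changes, 0 with all arrays, it was 6 without the arrays above 0.9, and 0 to 53 when 1 array was left out. The Gapdh difference ran from -0.69 to -0.36 and the beta-actin difference from -0.66 to -0.36 when 1 treated array was left out. Beyond the fits that leave out arrays, the cause of these changes was not tested.

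The replicate numbers did not pair the samples: arrays of the same number correlated with r between -0.256 and 0.341 in their deviations, over 0.1 in 1 of 5 pairs, and 1 of 5 correlated best with its own number. With the replicate block 27 probe sets passed in treated livers, 24 of them among the 34, and 0 in vehicle livers.

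Of 70 named genes, 21 changed sign in some setting, none of them among the 17 that passed. Leaving out the arrays above 0.9 keeps treated 21 d replicate 2 as the only array of its group, so those values rest on that liver. Without the arrays above 0.9 the log2 difference was 0.032 for Mal2, 0.062 for Xrcc1, -0.44 for Mcm6, -0.05 for Adh4, -0.11 for Cyp2b10, 1.36 for Per2, -0.55 for Fos, 0.16 for Sel1l, -0.33 for Fdps, 0.20 for Mlxipl, 0.48 for Cyp4a14, -0.23 for Fgb, -4.41 for Orm2, -0.85 for Zbp1, -1.29 for Ctss, -2.98 for Prtn3, -0.10 for Ighm, -0.11 for Ccn2 and 0.43 for Bmf. With the Gapdh covariate it was -0.045 for Fdps, -0.35 for Orm2 and -0.076 for Prtn3. When 1 array was left out, Fhit ran from -0.06 (treated 90 d replicate 6) to 0.47. Cpb1 had -0.11 with array weights and ran from -0.15 (treated 90 d replicate 5) to 0.74, with -0.09 when treated 21 d replicate 2 was dropped.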

Other observations

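Postnatal growth and metabolic genes outside the comparisons above did not pass with all arrays. Peg3, an imprinted gene of fetal growth, had log2 signals of 8.81, 7.69, 8.47, 9.30 and 8.77 in treated 21 d livers and 6.17 to 8.31 in treated 90 d livers (-1.10 ± 0.30 SE, limma adjusted p = 0.145). Sult5a1, a sulfotransferase, had 8.92 to 9.81 at 21 d and 7.56 to 9.37 at 90 d (-1.15 ± 0.25 SE, limma adjusted p = 0.0721), and its highest 90 d value was that of replicate 6. Id1, an inhibitor of helix-loop-helix factors and a target of BMP signalling, had 8.10 to 9.21 at 21 d and 9.22 to 9.94 at 90 d, with no overlap (0.92 ± 0.25 SE, limma adjusted p = 0.145). Nqo1, a quinone reductase of the NRF2 response, had 6.86 to 7.23 at 21 d and 6.83 to 7.86 at 90 d, with replicate 6 lowest (0.52 ± 0.14 SE, limma adjusted p = 0.138). Peg3, Sult5a1 and Nqo1 passed without treated 90 d replicate 6, with -1.26 (limma adjusted p = 0.0434), -1.38 (0.00254) and 0.66 (0.00362). They also passed without treated 21 d replicate 2, with -1.33 (limma adjusted p = 0.0178), -1.26 (0.0131) and 0.57 (0.0311), whereas Id1 passed in neither fit (adjusted p = 0.0913 and 0.0793). Cyp7a1, the rate-limiting enzyme of bile acid synthesis, had 9.82 to 12.66 at 21 d and 9.76 to 11.43 at 90 d (-0.69 ± 0.53 SE, limma adjusted p = 0.603).

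Across the 18193 genes, the treated and the vehicle change, which share no array, had a Pearson r of 0.0228 and a Spearman rho of -0.00285; genes are not independent replicates. Without treated 21 d replicate 2 the Pearson r was -0.127.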
